A study of Sus scrofa with 36 samples.

Results

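In the thyroid glands of 36 pigs, 10 genes of blood vessel endothelium and vessel growth were followed: VEGFA, KDR, FLT1, TEK, TIE1, ENG, PECAM1, CDH5, VWF and EGFL7. A probe was taken for a gene when the gene name column of the scanner files held its symbol, or when the description held it in round brackets, which gave 26 of the 60305 probes and 10 of 12089 named genes. All 26 probes were well above background on all 36 arrays and all 26 were among the 46222 probes tested. The pigs were castrated males of 3 breeds kept in Guadeloupe, namely Creole (CR), Large White (LW) and an F1 cross, which the methods describe as Large White × Créole, with 12 pigs each. Each breed had 6 pigs labelled 24 °C, slaughtered before a heat exposure, and 6 labelled 30 °C, slaughtered after 4 or 5 days of it, for which the protocol text gives 32 °C. The 30 °C pigs were therefore slaughtered later, and temperature and time of slaughter cannot be told apart. Pigs were arranged in blocks of 4 littermates, with 3 blocks per breed, and each pen held pigs of different blocks. The labels give neither litter nor sire nor dam, so breed and family cannot be told apart. The study's model had pen, day of slaughter, sire and dam as random terms. The tests below lack these terms and treat littermates as independent, so they can make breed differences look firmer than so few litters allow. Cy3-labelled RNA of the whole gland was read on 1-colour Agilent arrays for the pig, 1 animal per array, and all values below are log2 of the quantile-normalized median intensity, from scanner values without background subtraction.

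The endothelium lines every blood vessel, and the thyroid is among the most densely vascularised glands, each follicle being wrapped in a capillary basket through which iodide enters and hormone leaves. Vessel growth is driven by VEGFA, which binds the receptors KDR and FLT1 on endothelial cells; KDR carries most of the growth signal and FLT1, which binds VEGFA tightly, restrains it. The angiopoietins act through the receptor TEK, with TIE1 as its partner, and set vessel stability. Endoglin (ENG) is a TGF-beta and BMP co-receptor, PECAM1 and CDH5 (VE-cadherin) hold endothelial cells together, VWF is stored and released for haemostasis, and EGFL7 is secreted into the vessel matrix. In whole gland RNA, fewer endothelial cells and less RNA per cell cannot be told apart.

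The tissue label was borne out by the thyroid genes measured. Of the list of 10 follicular cell markers, 5 were tested, among them thyroglobulin (TG), with 10 probes and a mean of 18.66 in CR and 18.84 in LW on its brightest probe, and the iodide transporter SLC5A5, at 16.69 and 16.84. Of 24 pan-endothelial markers outside the 10 genes, 17 were tested, as were 10619 of the 12089 named genes. The share of probes well above background was 72.8% to 80.3% per array, 0 spots were saturated, and the arrays lay on 5 slides, of which slides 1 to 4 held all 6 groups. Slide 5 held 1 CR and 1 F1 pig at 30 °C and 2 LW pigs at 24 °C. Breed and temperature cannot be told apart on it, and the differences within slides given below are plain means without correction for either.

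The sequences of a few probes show how the array reads these genes. Capitals in the VEGFA pair mark 38 bases that the probes share on opposite strands, so that O11835 reads the complement of the transcript strand that A_72_P414353 reads. The sequence printed for FLT1 occurs on the array under 2 probe names. The PECAM1 pair is shown in lower case throughout because the probes share no stretch of 20 bases and their breed differences had opposite signs.
VEGFA A_72_P414353: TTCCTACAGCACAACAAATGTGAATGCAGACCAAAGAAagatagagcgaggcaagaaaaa
VEGFA O11835: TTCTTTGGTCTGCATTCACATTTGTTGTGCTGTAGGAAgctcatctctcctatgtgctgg
FLT1 O10586: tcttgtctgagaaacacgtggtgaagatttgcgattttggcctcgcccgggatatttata
PECAM1 A_72_P446708: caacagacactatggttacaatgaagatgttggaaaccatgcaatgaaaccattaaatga
PECAM1 A_72_P218027: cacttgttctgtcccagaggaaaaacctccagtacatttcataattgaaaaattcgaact

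The FLT1 sequence gives a direct measure of technical error. O10586 and A_72_P310443, the second probe of the same 60 bases, which carries an accession but no gene symbol, differed by 0.07 on average over the 36 arrays, with an SD of the difference of 0.14. The SD of O10586 itself over the pigs was 0.16, and the correlation of the 2 probes was 0.652. For a dim gene such as FLT1, then, differences of about 0.14 in 1 pig lay within the scatter of a repeated spot.

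**Figure D1:**
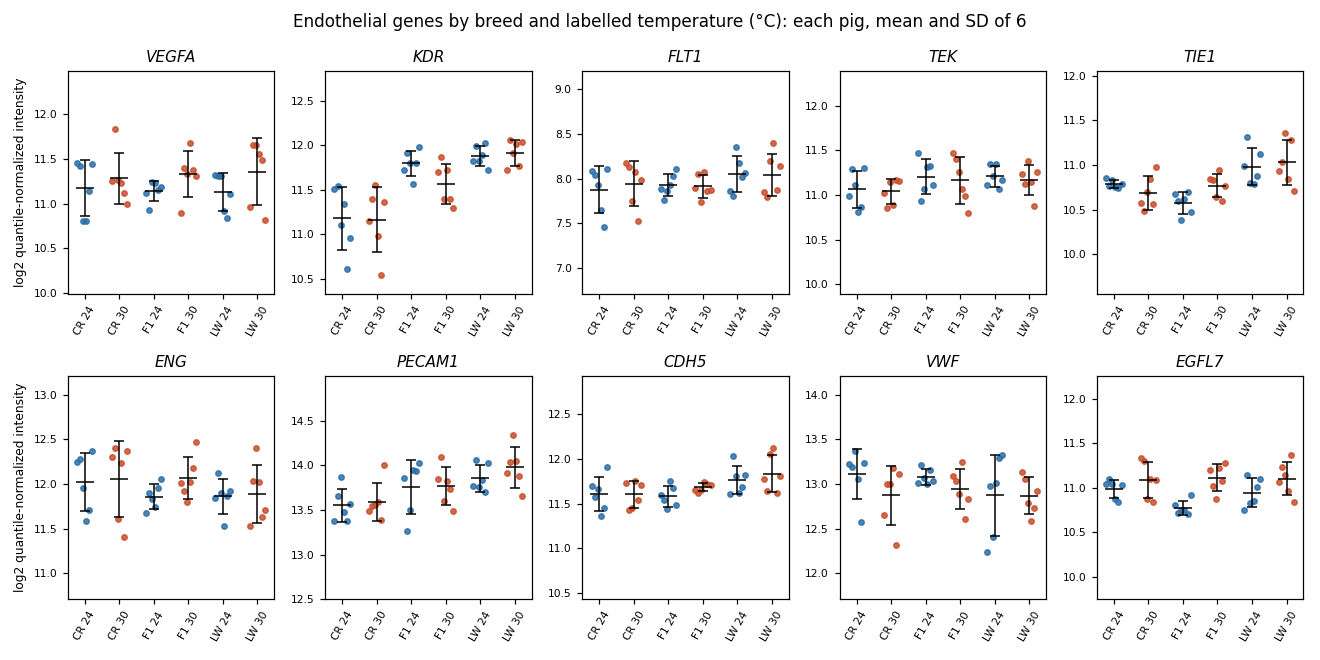
Log2 quantile-normalized intensity of the brightest probe of each of the 10 genes in every pig, by breed and labelled temperature (blue 24 °C, orange 30 °C), with the mean and SD of 6 pigs, all panels spanning the same number of log2 units. KDR is lowest in the CR pigs, TIE1 and PECAM1 are highest in LW, and for EGFL7 the mean of the F1 pigs is higher at 30 than at 24 °C, with overlapping ranges.

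The first question was whether the endothelial genes differed between the Large White and Creole pigs. Measured on the brightest probe of each gene, 4 of 10 genes, KDR, PECAM1, TIE1 and CDH5, were higher in LW, and 0 were lower. Of all named genes, 13.4% passed the same test (limma, Benjamini-Hochberg adjustment over all tested probes, adjusted p under 0.05) and 7.42% passed it as higher in LW. Counted over probes, 9 of the 26 were called, all 9 higher in LW, against 12.9% of all probes called and 7.17% called higher. Probes of the same gene were read in the same pigs, and the genes were chosen with earlier results of these data known. The shares are therefore given as a description. TEK was called on 2 of its 4 probes, though not on the brightest. The median difference of the 10 brightest probes was 0.14, against -0.00039 over all tested probes, and 7 of 10 were higher in LW.

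KDR, the main signalling receptor of VEGFA, had the largest difference of the 10. In the CR pigs its brightest probe, A_72_P380298, had a lowest value of 10.54, a median of 11.24 and a highest of 11.55. In the LW pigs the same values were 11.72, 11.90 and 12.06, so that every LW pig lay above every CR pig. Such a separation was found for 0.273% of the brightest probes of named genes. LW exceeded CR by 0.73 (SE 0.10, adjusted p 4.39e-06), a 1.65-fold difference in intensity, and the difference was 0.70 at 24 °C (adjusted p 0.00301) and 0.75 at 30 °C (adjusted p 0.00197). Within the 5 slides it ranged from 0.37 to 1.14, higher in LW on each.

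The other 2 KDR probes did not show it. A_72_P442740 averaged 9.37 ± 0.30 in CR and 9.42 ± 0.17 in LW (SD, n = 12 each), a difference of 0.05 (95% interval -0.13 to 0.22). O306 averaged 7.45 ± 0.17 and 7.48 ± 0.13, a difference of 0.03 (95% interval -0.09 to 0.15). Both intervals lie below the lower end of the interval of A_72_P380298, which ran from 0.53 to 0.93. Within groups A_72_P442740 followed A_72_P380298 from pig to pig (Pearson's r = 0.672, permutation p 4.00e-04; Spearman's rho = 0.577, p 0.00239), and O306 did so less closely (r = 0.332, permutation p 0.0970; rho = 0.329). In sequence, A_72_P380298 held a stop codon in each of the 3 frames of its printed strand, and A_72_P442740 ended in a run of 6 A. When the 3 probes were averaged, the LW and CR pigs differed by 0.27 (adjusted p 0.00785). The breed difference of KDR thus rested on 1 of 3 probes.

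**Figure D2:**
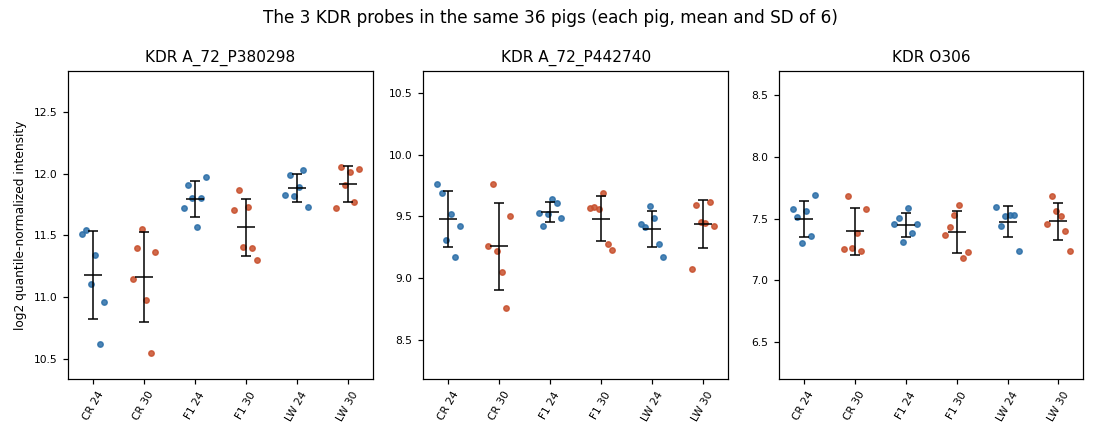
The 3 KDR probes in the same 36 pigs, log2 quantile-normalized intensity by breed and labelled temperature (blue 24 °C, orange 30 °C), with the mean and SD of 6 pigs, all panels spanning the same number of log2 units. The CR pigs lie below the LW pigs on A_72_P380298 (means 11.17 and 11.90) and level with them on the other probes.

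PECAM1, the adhesion molecule CD31 of endothelial junctions, was next. Its brightest probe, A_72_P650260, ran in CR from 13.37 over a median of 13.55 to 14.00, and in LW from 13.65 over 13.90 to 14.34. All 12 LW pigs lay above the CR mean, and the ranges overlapped. The difference was 0.35 (SE 0.09, adjusted p 0.00588). Among the other probes, A_72_P446708 differed by 0.28 (adjusted p 0.0234) and A_72_P077376 by 0.26 (adjusted p 0.0469). The call on A_72_P446708 was lost without LW 30 °C replicate 3 (0.24, adjusted p 0.0506). That on A_72_P077376 did not hold in 18 of 36 fits without 1 pig (0.21 to 0.27, adjusted p up to 0.0985), namely CR 24 °C replicates 1, 3, 4 and 5, CR 30 °C replicates 3, 4 and 5, F1 24 °C replicates 1 and 4, F1 30 °C replicates 1 and 6, LW 24 °C replicates 1, 2, 3 and 6 and LW 30 °C replicates 2, 3 and 4. The fourth, A_72_P218027, went the other way, from 13.11 ± 0.30 in CR to 12.85 ± 0.30 in LW (SD, n = 12 each), a difference of -0.25 (95% interval -0.48 to -0.03, adjusted p 0.131). With A_72_P650260 the 2 called probes correlated within groups at r = 0.643 and 0.649, and A_72_P218027 at 0.36 (permutation p 0.0554). Averaged over all 4 probes, PECAM1 differed by 0.16 (adjusted p 0.182). Within slides A_72_P650260 was higher in LW on 4 of 5, and the 2 other called probes on 5 of 5.

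For VE-cadherin, CDH5, the cadherin that seals the contacts between endothelial cells, both probes were called. The brighter one, A_72_P077856, ran from 11.36 over 11.62 to 11.91 in CR and from 11.61 over 11.79 to 12.12 in LW. Each of the 12 LW pigs exceeded the CR mean, by 0.19 on average (SE 0.06, adjusted p 0.0347). The dimmer one, A_72_P310398, differed by 0.25 (SE 0.07, adjusted p 0.0115). The call on A_72_P077856 was lost when any of 9 pigs was left out, namely CR 24 °C replicates 4 and 5, CR 30 °C replicates 2, 3 and 5, LW 24 °C replicates 2 and 3 and LW 30 °C replicates 3 and 4 (0.17 to 0.19, adjusted p up to 0.0697), and with scaling to the 75th percentile (adjusted p 0.0669).

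The angiopoietin receptors were called on 3 of their 5 probes. TIE1, on its single probe O12523, ran from 10.48 over 10.77 to 10.98 in CR and from 10.71 over 10.96 to 11.36 in LW. The difference was 0.27 (SE 0.07, adjusted p 0.0112), and it had the same sign on all 5 slides, from 0.02 to 0.55. At 30 °C it was 0.34 (adjusted p 0.0450), a call that was lost when any of 11 pigs was left out (CR 24 °C replicates 1 and 2, CR 30 °C and LW 30 °C replicates 1, 2, 3 and 5 each, and LW 24 °C replicate 1; lowest 0.27, adjusted p up to 0.135), and at 24 °C 0.19 (adjusted p 0.323). TEK was higher on A_72_P598553, from 9.85 ± 0.15 in CR to 10.103 ± 0.14 in LW (SD, n = 12 each), a difference of 0.26 (SE 0.07, adjusted p 0.00862). A_72_P691513 differed by 0.22 (SE 0.07, adjusted p 0.0226), while the brightest TEK probe, A_72_P209977, differed by 0.14 (95% interval -0.01 to 0.29, adjusted p 0.237) and O3657 by 0.03 (95% interval -0.14 to 0.20).

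The other 5 genes were not called for breed. VEGFA stood at 11.23 ± 0.29 in CR and 11.25 ± 0.31 in LW (SD, n = 12 each), with a 95% interval of the difference from -0.20 to 0.23. Its probe A_72_P443769 differed by 0.21 (adjusted p 0.0849), and was called without CR 24 °C replicate 2 (0.24, adjusted p 0.0491) or LW 24 °C replicate 4 (0.25, adjusted p 0.0443). The opposite-strand probe O11835, a dim one at 6.38 over all pigs, differed by -0.04. FLT1 differed by 0.13 (95% interval -0.03 to 0.30) and its second probe by -0.01. ENG differed by -0.16 (95% interval -0.39 to 0.06) and -0.14 on its 2 probes, VWF by -0.12 (95% interval -0.35 to 0.11) and EGFL7 by -0.01 (95% interval -0.15 to 0.12).

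**Figure D3:**
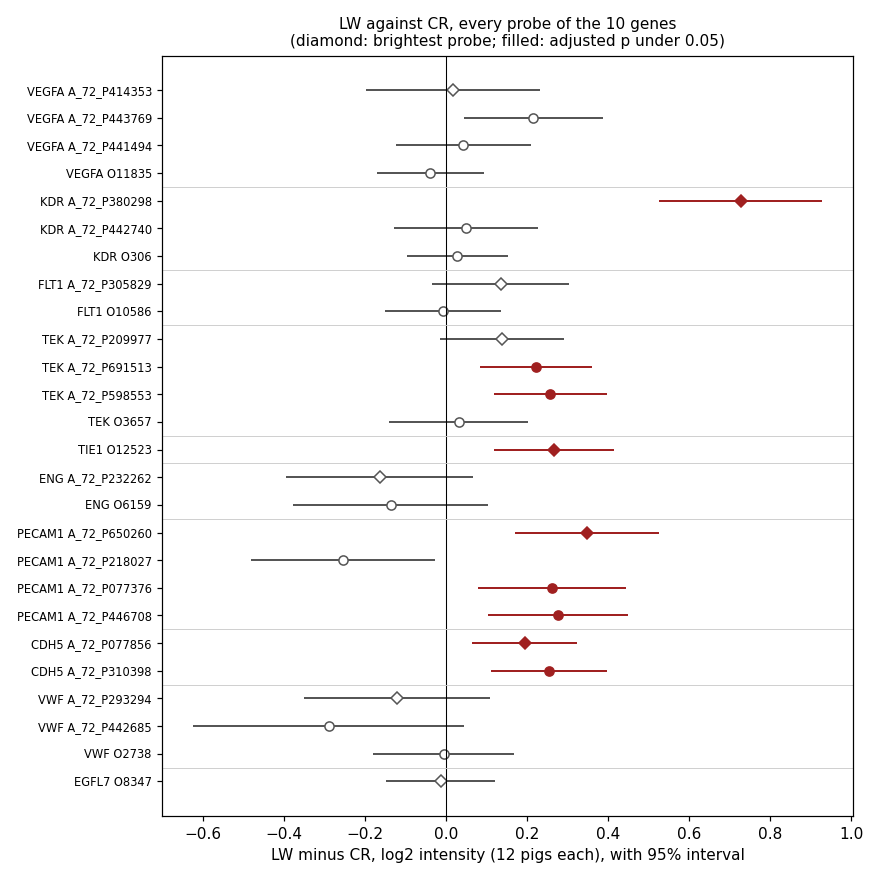
Difference between LW and CR pigs (12 each) in log2 intensity for each of the 26 probes, with the 95% interval from the model; diamonds mark the brightest probe of a gene and filled symbols an adjusted p under 0.05. All 9 filled symbols lie to the right of 0, and the KDR probe A_72_P380298, at 0.73, stands apart from the other KDR probes at 0.05 and 0.03.

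Of the 17 tested pan-endothelial markers outside the 10 genes, 17 were higher in LW on the brightest probe and 3 were called, beside 13.4% of all named genes. These were CLEC14A, an endothelial surface lectin (0.33, adjusted p 0.000952), TMEM100, a transmembrane protein of arterial endothelium (0.38, adjusted p 0.00820), and PLVAP, which forms the diaphragms of fenestrated capillaries (0.26, adjusted p 0.0274). The median of the 17 was 0.12, and the smallest difference was that of NOS3 (0.01). Over the 12 pigs of a breed, the mean of the 17 markers was 10.19 ± 0.15 (SD) for CR and 10.24 ± 0.15 (SD) for F1, and for LW it was 10.40 ± 0.13 (SD). The ranges of CR and LW overlapped (9.91 to 10.36 and 10.14 to 10.63). With this mean as a covariate, itself made of endothelial genes, the difference of KDR was 0.67 (adjusted p 0.000240), while those of PECAM1 (0.12, adjusted p 0.370), TIE1 (0.11, adjusted p 0.369) and CDH5 (0.05, adjusted p 0.687) were no longer called and that of ENG became -0.42 (adjusted p 0.0123).

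The lists of related pathways are set against the same 13.4% of all named genes. Of 5 other VEGF ligands and receptors tested, 1 was higher in LW, and VEGFB was called, and lower in LW (-0.17, adjusted p 0.00398, on both of its probes). In the angiopoietin system 4 were tested and all 4 were higher in LW, of which ANGPT2, the context-dependent antagonist of TEK made by endothelium, was called on both probes (0.51, adjusted p 0.00166). In CR it averaged 11.87 ± 0.19 and in LW 12.38 ± 0.31 (SD, n = 12 each). Of 10 tested genes of Notch and arterial signalling, the tip cell ligand DLL4 (0.47, adjusted p 0.000401) and the gap junction gene GJA4 (0.38, adjusted p 5.50e-05) were higher and the receptor NOTCH1 (-0.87, adjusted p 0.0239) lower in LW. DLL4 was called on 1 of its 3 probes, a dim one with means of 6.47 in CR and 6.94 in LW. Among 9 TGF-beta and BMP receptor genes and 14 genes of endothelial activation and haemostasis, 3 and 6 were higher in LW and 0 were called by limma, with unadjusted p under 0.05 for 1 and 0.

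Genes of the cells and matrix around vessels were read against the same 13.4%. Of 12 tested markers of pericytes and vascular smooth muscle, 8 were higher in LW and 3 were called, and TAGLN (0.35), MYH11 (0.28) and ACTA2 (0.22), all contractile proteins, were higher in LW. ACTA2 was called on 4 of its 8 probes. Of 11 tested genes of the vessel matrix and its inhibitors, whose median was -0.15, 4 were called. The basement membrane chains LAMC1 (0.57, adjusted p 5.00e-05) and COL4A1 (0.28, adjusted p 0.0442) were higher and LAMB1 (-0.42, adjusted p 2.27e-05) and COL18A1, the source of endostatin (-0.24, adjusted p 0.0214), lower. LAMC1 and COL4A1 were each called on 1 of 2 probes and LAMB1 on 2 of 3. EGLN2, an oxygen-sensing prolyl hydroxylase (0.29, adjusted p 0.00299), and the glycolytic enzyme ENO1 (0.26, adjusted p 0.0109) were the called ones of 17 tested genes of the hypoxia response, whose median was -0.0047.

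Markers of other cell types were compared between the same breeds. All 6 adipocyte markers tested were lower in LW and 4 were called, ADIPOQ (-1.21), PLIN1 (-1.20), CIDEC (-0.79) and LIPE (-0.35). CIDEC was called on 1 of its 3 probes and LIPE on 3 of 4. The mean of the 6 ran from 10.06 to 11.41 in CR, 10.35 to 11.64 in F1 and 9.72 to 10.75 in LW, and none was dim. Of 6 erythroid markers 3 were higher in LW, and HEMGN was called, and lower (-0.27, adjusted p 0.00708). Of 6 skeletal muscle markers, whose median was -0.18, ACTA1 alone was higher in LW and was called (0.22, adjusted p 0.0147). Of the 17 probes of ACTA1, 9 had that sign. An unadjusted p under 0.05 by limma was found for 4 adipocyte, 3 erythroid and 3 skeletal muscle markers, and 13.4% of all named genes were called. For follicular cells 0 of 5 markers were called, for leukocytes 0 of 5 and for lymphatic endothelium 0 of 5, where 1, 0 and 1 had an unadjusted p under 0.05 by limma. Their part in the endothelial differences was not tested.

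The cross was compared with each parental breed next. Against CR, 1 of the 10 genes was called, KDR on A_72_P380298, beside 3.2% of named genes. In F1 this probe ran from 11.30 over 11.72 to 11.98, which overlapped both parental ranges, and exceeded CR by 0.51 (SE 0.10, adjusted p 0.00256); it was higher in F1 on 4 of 5 slides. Averaged over the 3 probes the difference was 0.21 (adjusted p 0.0893). Of the other cell type markers, the erythroid gene HEMGN was called between F1 and CR (-0.25, adjusted p 0.0366). Between F1 and LW the KDR difference was -0.22 (95% interval -0.42 to -0.02, adjusted p 0.311).

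Against LW, TIE1 was the called gene of the 10, beside 1.84% of named genes. F1 ran from 10.39 over 10.66 to 10.94, and its mean was 0.33 below that of LW (log2 difference -0.33, SE 0.07, adjusted p 0.00782), with all 12 F1 pigs below the LW mean. Against CR, F1 differed by -0.07 in TIE1 (95% interval -0.21 to 0.08). Against the mean of both parental breeds, TIE1 in F1 differed by -0.20 (adjusted p 0.170), and 0 of the 10 genes were called beside 0.33% of named genes (limma; 1 had an unadjusted p under 0.05). CDH5 in F1 was 0.17 below LW (log2 difference -0.17, adjusted p 0.181) and its second probe 0.22 below (-0.22, adjusted p 0.0956). PECAM1 in F1 lay between the parental means, at 13.76 ± 0.25 (SD, n = 12), and differed from CR by 0.19 (adjusted p 0.250) and from LW by -0.16 (adjusted p 0.441). Of the 17 pan-endothelial markers, CLEC14A was called lower in F1 than in LW (-0.32, adjusted p 0.00589), as were GJA4 of the 10 Notch and arterial genes (-0.24, adjusted p 0.0297) and the chemokine CCL21 of the 5 lymphatic markers (-0.73, adjusted p 0.0467). All 6 adipocyte markers were higher in F1 than in LW and 3 were called, ADIPOQ (1.249), PLIN1 (1.15) and CIDEC (1.02), and their part in the endothelial differences was not tested.

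The study's own question was the response to heat. By limma, 0 of the 26 probes were called between the 30 and 24 °C pigs, beside 1.18% of all probes, and 2 of the 26 had an unadjusted p under 0.05. Differences of the 10 brightest probes ran from -0.12 for VWF to 0.20 for EGFL7, with a median of 0.05 against 0.01 over all probes.

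EGFL7, which was read by 1 probe, came nearest to a call. In the order lowest, median and highest, its log2 intensity was 10.84, 11.03 and 11.10 in CR at 24 °C and 10.84, 11.09 and 11.33 at 30 °C. In F1 it was 10.71, 10.75 and 10.92 at 24 °C and 10.88, 11.14 and 11.28 at 30 °C. In LW it was 10.75, 10.93 and 11.14 at 24 °C and 10.84, 11.11 and 11.37 at 30 °C. The ranges overlapped in each breed. Over all breeds the 30 °C pigs exceeded the 24 °C pigs by 0.20 (SE 0.05, adjusted p 0.0549), higher on all 5 slides (0.09 to 0.31). On slide 5, though, the 30 °C pigs were CR and F1 and the 24 °C pigs were LW. The adjusted p was 0.0437 with slide as a fixed block, 0.0383 with slide as a random block and 0.0185 with array position as a block. Leaving out any of 8 pigs also took it under 0.05 (CR 24 °C replicate 2, CR 30 °C replicates 3 and 5, F1 30 °C replicate 3, LW 24 °C replicates 2 and 6 and LW 30 °C replicates 4 and 6; differences of 0.21 to 0.22, lowest adjusted p 0.0224). The rest of the 36 fits without 1 pig left it uncalled, with an adjusted p up to 0.0976. Within breeds the difference was 0.10 in CR (adjusted p 0.997), 0.34 in F1 (adjusted p 0.0915) and 0.16 in LW (adjusted p 1.00).

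VEGFA, the hypoxia-responsive growth factor, differed by 0.17 between temperatures (95% interval -0.0016 to 0.35, adjusted p 0.519), by 0.12 on A_72_P441494 and by 0.06 on A_72_P443769. Its receptors KDR and FLT1 differed by -0.07 (95% interval -0.23 to 0.09) and 0.01 (95% interval -0.12 to 0.15). TEK differed by -0.03 on its brightest probe and by -0.12 on A_72_P598553 (adjusted p 0.431), TIE1 by 0.05, ENG by 0.09, PECAM1 by 0.06 and CDH5 by 0.06. VWF, whose LW pigs at 24 °C spread most (12.23 to 13.32), differed by -0.12 (95% interval -0.31 to 0.06). With these intervals a temperature difference of 0.35 or more in either direction lay outside the 95% interval for all 10 brightest probes.

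**Figure D4:**
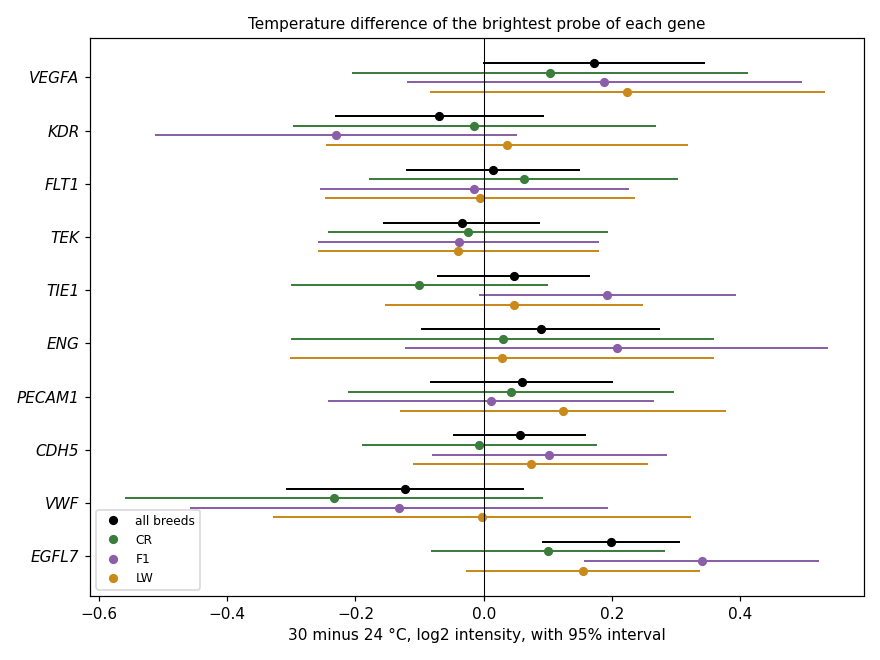
Difference between 30 and 24 °C pigs in log2 intensity for the brightest probe of each gene, over all breeds (black, 18 against 18 pigs) and within CR, F1 and LW (6 against 6 pigs each), with 95% intervals from the models. EGFL7 over all breeds (0.20) and within F1 (0.34) are the points whose intervals leave 0.

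Within a single breed 0 of the 26 probes were called in CR, in F1 or in LW by limma, beside 0.387%, 0.383% and 0 of all probes, and 0, 2 and 0 of the 26 had an unadjusted p under 0.05. The interaction of breed and temperature called 0 of the 26, as it did 0 of all probes, and 0 of the 26 had an unadjusted p under 0.05. Between LW and CR at 24 °C, KDR was the called one of the 26 probes, beside 3.46% of all probes. At 30 °C, KDR and TIE1 were called, beside 3.67%. The interaction test above is the test of whether such differences changed with temperature.

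Around the 10 genes, a few endothelial genes differed between temperatures. Of the 17 pan-endothelial markers 13 were higher at 30 °C, with a median of 0.05, and 4 had an unadjusted p under 0.05 by limma. The called one, TMEM100, went the other way and was lower at 30 °C (-0.33, adjusted p 0.0229). Of 14 genes of activation and haemostasis 7 were higher at 30 °C. The called one was ESM1, a secreted product of VEGF-stimulated tip cells, which was lower (-0.49, adjusted p 0.0413). Of all tested probes, 1.18% were called. In the VEGF, angiopoietin, Notch, TGF-beta and hypoxia lists 0 genes were called by limma, with 0, 2, 2, 2 and 1 at an unadjusted p under 0.05. Of the 9 tested cell cycle genes, 7 were called and lower, from CDK1 (-1.45) to AURKA (-0.35). HBB, the beta globin of red cells, was lower as well (-1.004, adjusted p 0.00142), 1 called of 6 erythroid markers, whose mean ran from 8.12 to 8.95 at 24 °C and from 7.94 to 8.56 at 30 °C. The part of these genes in the endothelial values was not tested.

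From pig to pig, the genes varied together only in part. With the 6 group means removed, 39 of the 45 pairs of genes had a positive Pearson's r, with a median of 0.259 and a range from -0.187 to 0.583. By permutation of pigs within groups (100000 resamples, 2-sided, adjusted over the 45 pairs), 5 pairs were called on Pearson's r and 3 of these on Spearman's rho also. The 3 were ENG with EGFL7 (r = 0.583, p 0.00206, adjusted p 0.0279; rho = 0.587, p 0.00121, adjusted p 0.0272), PECAM1 with TIE1 (r = 0.541, p 0.000910, adjusted p 0.0279; rho = 0.547, p 0.00107, adjusted p 0.0272) and PECAM1 with TEK (r = 0.533, p 0.00258, adjusted p 0.0279; rho = 0.53, p 0.00261, adjusted p 0.0391). Without the 2 pigs farthest from the median of the first gene, r was 0.551, 0.556 and 0.478. With slide means removed as well it was 0.543, 0.545 and 0.588. The 2 pairs called on r alone were ENG with FLT1 (r = 0.571, adjusted p 0.0279; rho = 0.527, adjusted p 0.0524) and ENG with CDH5 (r = 0.547, adjusted p 0.0279; rho = 0.508, adjusted p 0.0524). VEGFA and its receptor KDR had r = 0.138 (permutation p 0.486). KDR, VEGFA and VWF each took part in 0 called pairs. Nearest to a call among their pairs were VWF with KDR (r = 0.468, adjusted permutation p 0.0542) and ENG with VEGFA (r = 0.486, adjusted permutation p 0.071). With slide means removed as well, r was 0.52 and 0.689.

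**Figure D5:**
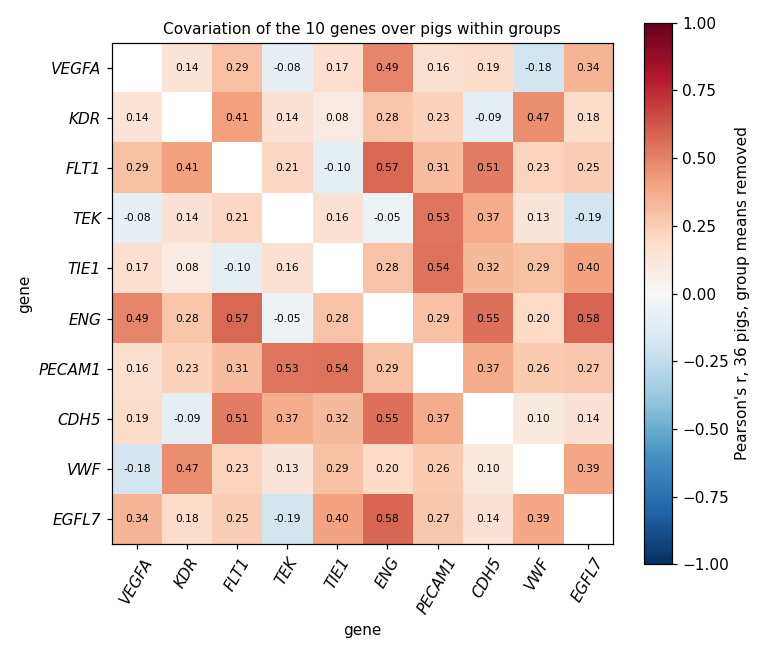
Pearson's r between the brightest probes of the 10 genes over 36 pigs after removal of the 6 group means, on a colour scale from -1 to 1. The darkest cells join ENG with EGFL7, FLT1 and CDH5, and PECAM1 with TIE1 and TEK.

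Between probes of the same gene the correlation was closer, positive in 16 of 16 pairs of the brightest probe with another and called in 12, with a median of 0.646. It was 0.970 for the 2 ENG probes, 0.868 for VEGFA A_72_P414353 with A_72_P441494 and 0.807 for TEK A_72_P209977 with A_72_P598553. VEGFA O11835, on the opposite strand, reached 0.319 (permutation p 0.0755), and VWF A_72_P442685, with a level of 6.38 in CR, 0.222 (permutation p 0.282).

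The genes outside the 10 most like their common profile over the 36 pigs were WWTR1, a transcriptional co-activator of the Hippo pathway (r = 0.774), PCDH18, a protocadherin (0.770), FABP5, a fatty acid binding protein (0.764), CD248, a marker of perivascular and stromal cells (0.758), and SLC9A3R2, a scaffold protein (0.739), out of 10594 genes compared. Over the 17 pan-endothelial markers the median r with the profile was 0.440, against 0.0335 over all genes. These correlations were taken after removal of the group means, so they leave out the group differences. They share the arrays and are given as a description.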

How the data were processed

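Thyroid RNA of 36 pigs was hybridized to 1-colour arrays. Per the submitters' processing notes, Agilent Feature Extraction 10.10.1.1 read the scans and limma was used. The deposited scanner files hold a median pixel intensity per spot, unscaled. The authors also deposited log2 values, quantile-normalized without background subtraction. The log2 values used here were remade that way from the intensities, and differed from the deposited ones by a median of 0.00556 over 46097 probes. Testing required a probe to be well above background in 5 or more of the 6 pigs of any group. Tests were run in limma 3.58.1 (R 4.3.3; lmFit, contrasts.fit, eBayes), adjusted over all tested probes by Benjamini-Hochberg. The model had breed and temperature, or the 6 group means for differences within a breed or temperature and for the interaction, with all 36 arrays in each. The scripts were tested on simulated data with 200 changed probes. The text names each of the 10 genes by its tested probe of highest mean signal and gives its other probes, then the called genes of each list, at most 5, and the 5 genes most like the common profile. The members and lists were chosen with earlier results of these data known. Groups come from the labels; replicate numbers follow accession order and pair nothing. P-values, SEs and intervals treat pigs as independent, although the pigs of a breed included littermates. Alternatives covered scaling, background, filter, slide, position, each pig left out, averaged probes and an endothelial covariate. The number of arrays limits the precision. Gene names were read from the scanner files and a current pig gene list; no genome position is given, as the build of the probes is not given in the sources used here.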

Additional observations from a re-analysis of the deposited data

Results flagged for a closer look

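Each of the 60 sets of 6 pigs (10 genes, 6 groups) was searched for a pig far from the others by Dixon's ratio of the gap to the nearest pig over the whole range, at the 95% critical value for 6 pigs. About 1 set in 20 passes by chance, which is 3 of 60, and 2 passed. For PECAM1, replicate 6 of CR at 30 °C stood at 14.00 against a mean of 13.51 of the other 5 (ratio 0.673). For VEGFA, replicate 2 of CR at 30 °C stood at 11.83 against 11.17 (ratio 0.672). Without that PECAM1 value, the difference between LW and CR at 30 °C was 0.47 (adjusted p 0.0337), called by limma, and without LW 30 °C replicate 6 it was 0.45 (adjusted p 0.0449), also called.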

How the results depend on the processing

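Of the genes called between LW and CR, KDR, PECAM1 and TIE1 stayed called when any pig was left out, and 3 to 4 of the 10 genes did. With the endothelial covariate 2 of the 10 genes were called, KDR and ENG. Without it ENG was not called, and with it ENG was lower in LW. KDR on A_72_P380298 kept its call under every scaling, background, filter and block tried (0.71 to 0.74). With averaged probes it was called at 0.27, an average that contains A_72_P380298. These settings therefore do not bear on the other KDR probes, as 1 of the 3 was called. For F1 against CR, averaging probes left 0 genes called, as did the covariate for F1 against LW and averaging for LW against CR at 24 °C, where the position block gave 2. At 30 °C, 1 gene was called with either 75th percentile scaling, with no filter, with slide as a fixed block and with the covariate, and 1 to 3 when a pig was left out. TIE1 was the gene lost. For heat, 1 gene (EGFL7) was called with slide as a fixed or random block or position as a block, and 0 to 1 when a pig was left out. Over all probes, F1 against the mean of both breeds gave 315 calls with slide as a random block against 203. Heat within CR gave 114 on the 12 arrays of the breed against 179. Heat within F1 gave 18 with position as a block, 62 with the covariate, 0 on its 12 arrays and 68 to 272 when a pig was left out, against 177. Heat within LW gave 0 to 16 when a pig was left out, and LW against CR at 24 °C gave 1049 with the covariate and 883 to 1665 when a pig was left out, against 1600. With slide means removed 10 pairs of genes were called in place of 5.

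Signs turned only in uncalled differences, not all of them near 0. PECAM1 between F1 and LW and FLT1 between LW and CR turned with the covariate. With 1 pig left out they kept their sign and ran from -0.19 to -0.12 and from 0.09 to 0.16. With the covariate, heat gave PECAM1 -0.031, CDH5 -0.00099, FLT1 -0.041, TIE1 -0.013 and ENG -0.013, F1 against LW gave PECAM1 0.0091, F1 against CR gave CDH5 -0.011, and LW against CR gave FLT1 -0.0048 and VEGFA -0.11. VEGFA between LW and CR was -0.015 with 75th percentile scaling of the background-subtracted intensity and -0.0013 with normexp. Leaving out a pig gave VEGFA -0.016 to 0.064 and EGFL7 -0.041 to 0.013 in that comparison, and FLT1 -0.014 to 0.038 for heat. Causes of these changes were not tested. No paired analysis was possible because the labels give no replicate numbers and the litters are not named. Low signal may limit the dim probes, although all 26 were well above background. By mean over all pigs these were VWF O2738 (6.14) and A_72_P442685 (6.19) and VEGFA O11835 (6.38). CDH5 A_72_P310398 (7.38), KDR O306 (7.45), TEK O3657 (7.64) and FLT1 O10586 (7.48) and A_72_P305829 (7.96) were dim as well.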
